A study of Mus musculus with 8 samples.

Results

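The genes described here are 9 that mark or drive the epithelial-mesenchymal transition: the transcription factors Snai1, Snai2, Twist1, Twist2, Zeb1 and Zeb2, the intermediate filament gene Vim, and the cadherins Cdh1 and Cdh2. They were taken by gene name from the table of estimated counts, which held 26709 genes, and all 9 passed the filter on low counts that left 19718 genes for testing. The data came from EMT6 tumours in Balb/c mice, EMT6 being a mouse mammary carcinoma line that grows in this strain. In 4 tumours the mice were given GrB-Fc-KS49, a human fusion protein in which granzyme B, a protease of killer cells, is aimed at the surface protein EMP2, and in 4 they were given control IgG. They are called GrB tumours and IgG controls here, GrB being the name in the library titles. Per the labels, treatment was given 3 times within 10 days, all samples carried a wild-type genotype and the tissue was mammary tumour. The sources used here give neither the age of the mice nor whether each tumour came from its own mouse, so the p-values measure the spread between these libraries.

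In the epithelial-mesenchymal transition, cells of an epithelium give up the junctions that hold them together and take on the shape and motility of mesenchymal cells. The Snail, Twist and Zeb factors bind E-box sequences and repress epithelial genes, of which Cdh1, the gene of E-cadherin, is the best studied. Mesenchymal cells carry vimentin filaments and often N-cadherin, the product of Cdh2, and tumour fibroblasts, vessels and macrophages express several of these factors without being tumour cells.

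Total estimated counts ran from 74 to 82.6 M per library, and the title of 1 library per group (GrB replicate 3 and IgG control replicate 1) ends in U, a suffix not explained in the sources used here. Each title begins with M and a different number, which was not used in the fits. Replicate numbers only name libraries. The label names epithelial breast tumour cells, and among epithelial genes Krt8, a keratin of simple epithelia, was at 391 to 631 CPM (counts relative to the library total, scaled by TMM) in GrB tumours and at 414 to 468 CPM in IgG controls. Epcam, an epithelial adhesion protein, was at 2.73 to 16.0 CPM in GrB tumours and at 3.19 to 4.46 CPM in IgG controls, and the 12 macrophage and monocyte markers summed to 1859 to 4572 CPM and 1974 to 2295 CPM. The libraries therefore hold other cells of the tumour as well, and in such bulk samples fewer cells of a type and less RNA per cell cannot be told apart. The GrB libraries differed more among themselves (Pearson's r across genes, on log2 CPM, 0.967 to 0.987) than the IgG controls did (0.990 to 0.995).

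Across the 9 genes, 8 had a lower mean in GrB tumours than in IgG controls, and Cdh1 had a higher one through 1 library. By edgeR's quasi-likelihood test 0 of the 9 passed a Benjamini-Hochberg adjusted p under 0.05, as did 0% of all tested genes, while 6915 genes, 35.1% of those tested, had an unadjusted p under 0.05. DESeq2 called 24.1% of all tested genes at an adjusted p under 0.05, limma-voom 0.00507% and limma-voom with sample weights 6.55%. At an unadjusted p under 0.05 there was 1 of the 9, Zeb2, lower in GrB tumours, against 17.8% of all tested genes lower and 17.3% higher. The median log2 fold change (GrB over IgG) of the 9 genes was -0.20, against 0.03 over all tested genes, and of all tested genes 46.8% had a log2 fold change below 0 and 53.2% above it. In 1 of the 9 genes, again Zeb2, all 4 GrB libraries lay below all 4 IgG controls, an arrangement found in 15.3% of all tested genes.

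**Figure D1:**
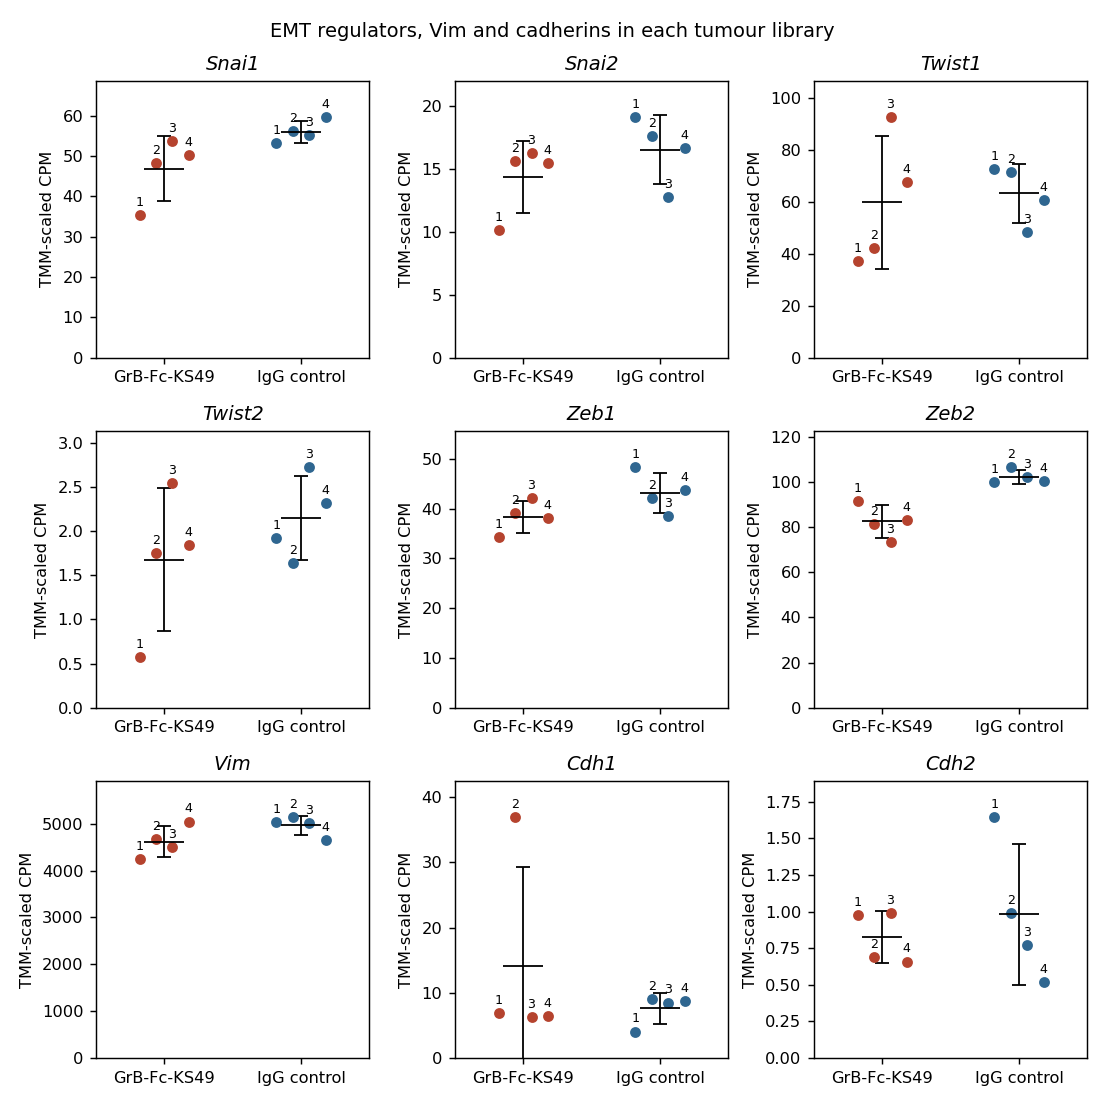
TMM-scaled CPM (y axis, from 0) of the 9 genes in each library, with GrB at left and IgG control at right, replicate numbers above the points, and the mean and SD (n = 4 each) as horizontal and vertical bars. Zeb2 is the one gene without overlap between the groups, with 73.6 to 91.7 CPM in GrB tumours and 100.02 to 106 CPM in IgG controls, and the 36.9 CPM of Cdh1 belong to GrB replicate 2, whose group's SD bar runs below 0 and is clipped at the axis.

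Per length, Vim was the most abundant of the 9 transcripts and Cdh2 the least. Levels between genes were compared as CPM per kilobase of the longest annotated transcript, a measure that takes no account of which isoform was made. In GrB tumours the order was Vim with 1580 ± 115 CPM per kb, Twist1 with 36.8 ± 15.7, Snai1 with 28.9 ± 4.96, Zeb2 with 9.04 ± 0.814, Snai2 with 7.10 ± 1.41, Zeb1 with 6.61 ± 0.561, Cdh1 with 3.19 ± 3.43, Twist2 with 0.665 ± 0.323 and Cdh2 with 0.171 ± 0.0366 (SD, n = 4). In IgG controls the order was the same, with 1700 ± 71.8 CPM per kb for Vim, 38.8 ± 7.0 for Twist1, 34.6 ± 1.68 for Snai1, 11.2 ± 0.327 for Zeb2, 8.18 ± 1.34 for Snai2, 7.44 ± 0.705 for Zeb1, 1.71 ± 0.536 for Cdh1, 0.852 ± 0.188 for Twist2 and 0.203 ± 0.0994 for Cdh2 (SD, n = 4). Twist1 and Snai1 overlapped in range in both groups, and so did Snai2 and Zeb1. Zeb1 and Cdh1 overlapped in GrB tumours alone, and Cdh1 and Twist2 in IgG controls alone. Through GrB replicate 2, at 8.33 CPM per kb, Cdh1 also overlapped Snai2 and Zeb2 in GrB tumours. Among the E-box repressors, then, Twist1 and Snai1 stood above the Zeb genes per length, and each family had a more and a less abundant member, with Snai1 above Snai2, Twist1 above Twist2 and Zeb2 above Zeb1 in all 8 libraries.

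Snai1 encodes Snail, a zinc finger repressor of Cdh1 (ENSMUSG00000042821, chromosome 2, 167380115 to 167384734, plus strand, GRCm39). Its level was 35.3, 48.2, 53.7 and 50.4 CPM in GrB replicates 1 to 4, and 53.1, 56.1, 55.3 and 59.7 CPM in IgG control replicates 1 to 4. The groups overlapped through GrB replicate 3 alone, which lay just above the lowest control, and replicate 1 was the lowest of all. The log2 fold change came to -0.26 (SE 0.12, edgeR quasi-likelihood, Benjamini-Hochberg adjusted p = 0.170, unadjusted p = 0.0683), short of the threshold, and without GrB replicate 1 it was -0.14. Snai2 encodes Slug, the close relative of Snail (ENSMUSG00000022676, chromosome 16, 14523716 to 14527249, plus strand). It was at 10.1, 15.6, 16.3 and 15.5 CPM in GrB replicates 1 to 4, and at 19.1, 17.6, 12.8 and 16.6 CPM in IgG control replicates 1 to 4. GrB replicate 1 stood apart below the other libraries, the remaining values of both groups were mixed, and the log2 fold change of -0.20 was close to its standard error of 0.18 (adjusted p = 0.428, edgeR).

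The Snail factors bind the E-box CAGGTG, and Snail is known to repress its own promoter. The 250 bases before the RefSeq starts of Snai1, and of Zeb2 as the gene without overlap between the groups, are shown because the E-box is the sequence through which these factors act. The strand of each is that of its gene, read 5′ to 3′, from RefSeq on GRCm38.p6, a build other than that of the counts, and capitals mark a match to CAGGTG on either strand.
Snai1, chr2:167537945-167538194, plus strand: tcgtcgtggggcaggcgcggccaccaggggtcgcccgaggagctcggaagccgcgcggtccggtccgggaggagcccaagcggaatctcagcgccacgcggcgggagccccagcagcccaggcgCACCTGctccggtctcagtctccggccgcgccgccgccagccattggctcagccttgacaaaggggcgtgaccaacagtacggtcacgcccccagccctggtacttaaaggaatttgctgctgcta
Zeb2, chr2:45117443-45117692, minus strand, before the most upstream of 4 listed starts: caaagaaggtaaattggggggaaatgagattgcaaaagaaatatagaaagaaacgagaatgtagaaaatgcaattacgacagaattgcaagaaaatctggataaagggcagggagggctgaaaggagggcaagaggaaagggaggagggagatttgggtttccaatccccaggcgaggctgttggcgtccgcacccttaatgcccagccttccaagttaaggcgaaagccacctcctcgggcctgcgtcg
In the Snai1 window there was 1 match, CACCTG, which is the reverse complement of CAGGTG and begins 126 bases before the start. The Zeb2 window held no match, nor any to the wider E-box CANNTG, which includes CAGGTG, and this says only that these letters are not in this window. No GENCODE M21 transcript of Zeb2 began at the printed start, whereas Zeb2-202 began at another of the listed starts. The windows before the other listed Zeb2 starts held neither motif. Of 32851 mouse promoter windows of the same 250 bases, 17.2% held CAGGTG on either strand and 66.2% held CANNTG. Windows were listed for 5 of the 9 genes, and those of Twist1, Twist2 and Vim held neither motif.

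Twist1, a basic helix-loop-helix factor of mesoderm and neural crest (ENSMUSG00000035799, chromosome 12, 34007670 to 34009828, plus strand), varied more between GrB tumours than between the groups. It was at 37.1, 42.1, 92.6 and 67.8 CPM in GrB replicates 1 to 4, and at 72.7, 71.3, 48.2 and 60.6 CPM in IgG control replicates 1 to 4. Both the lowest and the highest values lay in the GrB group, whose coefficient of variation was 42.7% against 18.0% in IgG controls. The log2 fold change came to -0.08 (SE 0.29, edgeR adjusted p = 0.866), and its sign changed when GrB replicate 1 was left out (0.09). Tumour fibroblasts also express Twist1, and the 12 fibroblast markers summed to 6688, 8233, 17597 and 12387 CPM in GrB replicates 1 to 4, and to 15427, 13058, 9251 and 12517 CPM in IgG control replicates 1 to 4. The libraries with the most and the least Twist1 in each group were also those with the highest and lowest fibroblast sum, and the part of fibroblasts in the Twist1 level was not tested. None of the 12 fibroblast markers was at 0 in any library, and none was at an unadjusted p under 0.05.

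Twist2, also called Dermo1, is a factor of dermis and mesenchyme (ENSMUSG00000007805, chromosome 1, 91729183 to 91775750, plus strand). Only 46 to 213 counts per library lay behind its values, which were 0.576, 1.75, 2.54 and 1.85 CPM in GrB replicates 1 to 4, and 1.92, 1.64, 2.72 and 2.32 CPM in IgG control replicates 1 to 4. Apart from the low GrB replicate 1 the groups overlapped, and the log2 fold change of -0.35 had a standard error of 0.39 (edgeR adjusted p = 0.540) and was -0.07 without that library. The noncoding genes Gm29100, on the other strand, and Gm29101, on the same strand, overlap Twist2 over 1477 and 1471 bases and stayed below 0.2 CPM in all 8 libraries. The estimated counts of Twist2, like those of Zeb2, were not whole numbers in any library, and the sources used here do not say how reads were divided among features.

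Zeb2, a zinc finger and homeodomain repressor also made by macrophages and other immune cells (ENSMUSG00000026872, chromosome 2, 44873644 to 45007407, minus strand), had the clearest difference of the 9. It was at 91.7, 81.4, 73.6 and 83.2 CPM in GrB replicates 1 to 4, and at 100.02, 106, 102 and 100.2 CPM in IgG control replicates 1 to 4. Every GrB library lay below every control, and the means were 82.5 ± 7.43 CPM in GrB tumours and 102 ± 2.99 CPM in IgG controls (n = 4 each, SD). The log2 fold change of -0.31, with a standard error of 0.08 and an unadjusted p of 0.00307, missed the threshold after adjustment (edgeR quasi-likelihood with Benjamini-Hochberg, adjusted p = 0.0619). That adjusted p is the smallest any gene reached and is shared by 1494 genes, and 4.74% of tested genes had an unadjusted p as small or smaller. DESeq2 (adjusted p = 0.00357) and limma-voom with sample weights (0.0458) called Zeb2, and so did edgeR without GrB replicate 1 (0.0327) or replicate 4 (0.0444). Of all tested genes these settings called 24.1%, 6.55%, 6.32% and 17.1%, in that order. With edgeR, the adjusted p of Zeb2 was 0.0881 without GrB replicate 2 and 0.0761 without GrB replicate 3. It ran from 0.118 to 0.16 when an IgG control was left out and was 0.162 without both U libraries.

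The difference in Zeb2 was not seen once trends with transcript length and GC content were removed from each library, where the log2 fold change was 0.02 (edgeR adjusted p = 0.945). Zeb2 has the longest transcript of the 9, with 9124 bases, and the lowest GC content, 40.6%. Across 14508 protein-coding genes, a library's deviation from the gene means fell with transcript length in GrB replicates 1 to 4 (Spearman's rho -0.401, -0.300, -0.155 and -0.056, across genes, which are not independent replicates) and rose with it in each IgG control (0.325 to 0.397). For GC content the same rho ran from 0.062 to 0.204 in GrB libraries and -0.263 to -0.160 in IgG controls. Deviations were taken from each gene's mean over all 8 libraries, so a fall in GrB libraries goes with a rise in IgG controls. The opposite signs of the groups are therefore not separate observations, for length or for GC content. Both trends separated the groups, so removing them can also remove differences due to treatment, and these cannot be told apart. Among GrB libraries, Zeb2 was highest in replicate 1 (91.7 CPM), where rho with length was lowest, and lowest in replicate 3 (73.6 CPM). The part of these trends in the Zeb2 level was not tested. Of the 12 macrophage markers 11 had a positive log2 fold change, with a median of 0.61, or 0.31 without GrB replicate 1. Their sum was 4572, 3629, 2439 and 1859 CPM in GrB replicates 1 to 4 and 1974 to 2295 CPM in IgG controls, so replicate 4 lay below every control and the others above. The part of macrophages in the Zeb2 level was not tested.

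Zeb2os, a noncoding RNA on the opposite strand at the 5′ end of Zeb2 (ENSMUSG00000052248, chromosome 2, 45000719 to 45004099, plus strand), lies within Zeb2 over its full 3381 bases. It was at 10.3, 7.68, 8.09 and 5.94 CPM in GrB replicates 1 to 4, and at 5.44, 6.16, 5.34 and 5.5 CPM in IgG control replicates 1 to 4. The GrB replicates 1, 2 and 3 lay above every control and replicate 4 lay within their range, so that this gene differed in the direction opposite to Zeb2. Its log2 fold change came to 0.51 (SE 0.17, edgeR adjusted p = 0.0762, unadjusted p = 0.0133). As a percentage of the Zeb2 count, Zeb2os was at 11.3, 9.44, 11 and 7.14% in GrB tumours and at 5.44, 5.79, 5.23 and 5.49% in IgG controls, without overlap. The kit keeps the strand of a transcript, but whether counting used the strand is not stated, and if it did not, reads of the 2 genes cannot be told apart. Added together they came to 102.0, 89.1, 81.7 and 89.1 CPM in GrB tumours and to 105.5, 113, 107 and 106 CPM in IgG controls, so the groups did not overlap in the sum either. Zeb2 makes up most of the sum and is the denominator of the percentage, so neither is independent of the difference in Zeb2.

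**Figure D2:**
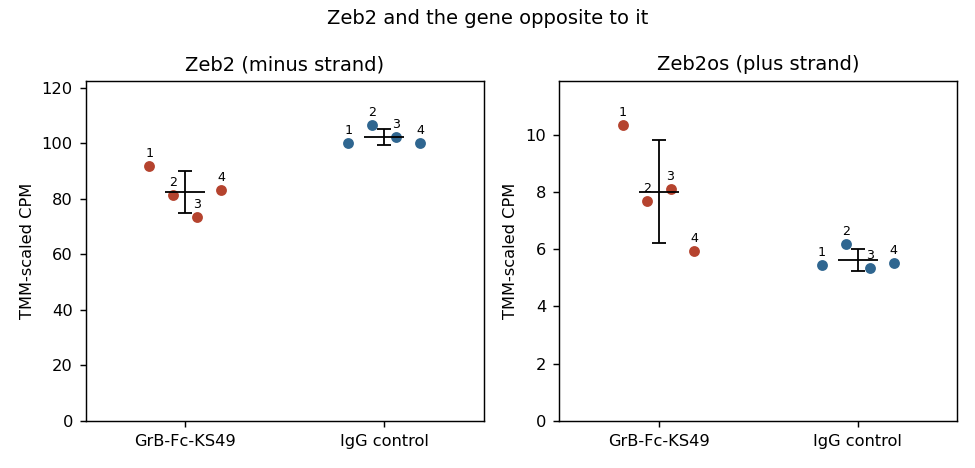
TMM-scaled CPM (y axes, from 0) of Zeb2 at left and of the opposite-strand gene Zeb2os at right, per library, with the mean and SD of each group (n = 4). Zeb2 averages 82.5 CPM in GrB tumours and 102 CPM in IgG controls, while Zeb2os averages 8.01 CPM and 5.61 CPM, with GrB replicate 4 inside the range of the controls.

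Zeb1, the second repressor of this family (ENSMUSG00000024238, chromosome 18, 5591860 to 5775467, plus strand), was steady across the libraries. It was at 34.2, 39.1, 42.1 and 38.0 CPM in GrB replicates 1 to 4, and at 48.3, 42.2, 38.4 and 43.7 CPM in IgG control replicates 1 to 4. Only GrB replicates 1 and 4 lay below every control. The log2 fold change came to -0.17 (SE 0.09, edgeR adjusted p = 0.219), and with the length and GC trends removed it was 0.02. The noncoding gene Gm10125 lies opposite to Zeb1 over 1646 bases and did not exceed 0.200 CPM.

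Vim, whose product is the main intermediate filament of mesenchymal cells and of tumour stroma (ENSMUSG00000026728, chromosome 2, 13578738 to 13587637, plus strand), rested on 339006 to 416749 counts per library. Its level was 4245, 4684, 4503 and 5049 CPM in GrB replicates 1 to 4, and 5039, 5137, 5025 and 4659 CPM in IgG control replicates 1 to 4. Among the 9 genes it had the smallest spread in GrB tumours, with a coefficient of variation of 7.31%, against 4.23% in IgG controls. GrB replicates 1 and 3 lay below all controls, and the log2 fold change came to -0.10 (SE 0.08, edgeR adjusted p = 0.360).

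Cdh1 encodes E-cadherin, the adhesion molecule of epithelial junctions (ENSMUSG00000000303, chromosome 8, 107329983 to 107396878, plus strand). Its level was 6.90, 36.9, 6.22 and 6.47 CPM in GrB replicates 1 to 4, and 4.05, 9.07, 8.5 and 8.75 CPM in IgG control replicates 1 to 4. The higher GrB mean, 14.1 ± 15.2 CPM against 7.59 ± 2.37 CPM in IgG controls (n = 4 each, SD), came from replicate 2, and the other 3 GrB libraries lay between the lowest control and the rest. The log2 fold change came to 0.90 (SE 0.63, edgeR adjusted p = 0.334), and without GrB replicate 2 it was -0.20, with a GrB mean of 6.53 CPM. Epidermal keratins marked the same library. Krt10, a keratin of differentiating epidermis, was at 1.97, 725, 0.381 and 0.249 CPM in GrB replicates 1 to 4 and at 0.230 to 0.316 CPM in IgG controls. The 12 skin keratinocyte markers summed to 129.9 to 2257 CPM in GrB tumours, with 2257 CPM in replicate 2, and to 119 to 130.4 CPM in IgG controls. Most of the control sum was Sfn, at 93.6 to 97.4 CPM in IgG controls and at 98.0 to 180 CPM in GrB tumours. Of the 6 markers that could be tested, 5 were at an unadjusted p under 0.05 and higher, and without GrB replicate 2 there were 2. Ivl, a cornified envelope gene, was at 0 in GrB replicate 4 and in IgG control replicates 1 and 4, and the desmosomal cadherin genes Dsg1a and Dsc3 were at 0 in IgG control replicate 2. The part of skin in the Cdh1 level of GrB replicate 2 was not tested.

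**Figure D3:**
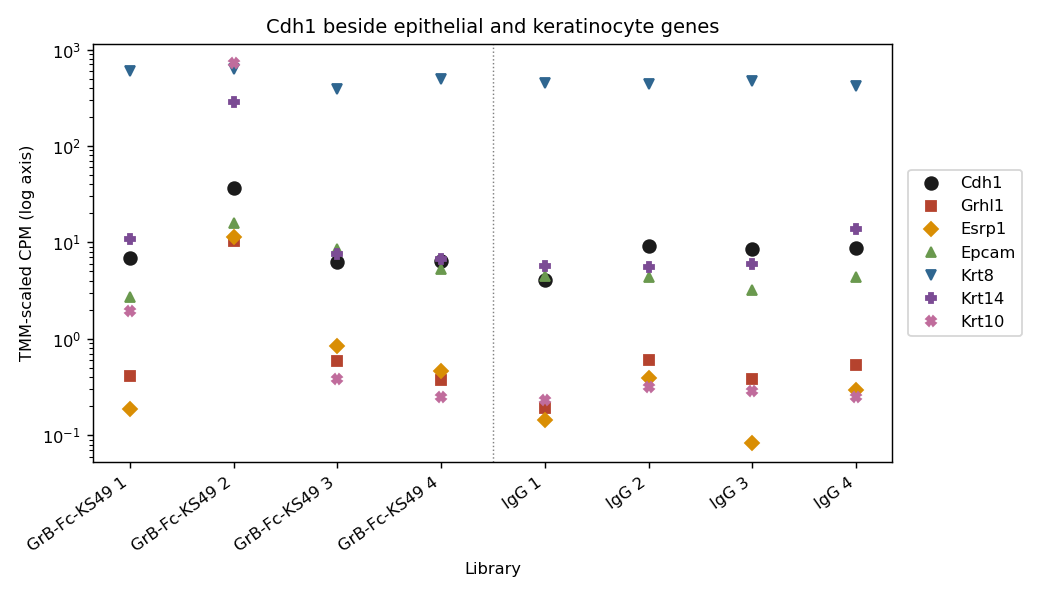
TMM-scaled CPM on a log axis of Cdh1, the epithelial genes Grhl1, Esrp1, Epcam and Krt8, and the epidermal keratin genes Krt14 and Krt10 in each library, GrB to the left of the dotted line and IgG control to the right. Cdh1 reaches 36.9 CPM in GrB replicate 2, where Krt10 is at 725 CPM and Esrp1 at 11.4 CPM, whereas Krt8 stays between 391 and 631 CPM in all 8 libraries.

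Cdh2 encodes N-cadherin, the cadherin of neural and mesenchymal cells (ENSMUSG00000024304, chromosome 18, 16721934 to 16942303, minus strand). With 42 to 136 counts per library it was the least abundant of the 9, at 0.977, 0.692, 0.987 and 0.659 CPM in GrB replicates 1 to 4, and at 1.64, 0.989, 0.773 and 0.521 CPM in IgG control replicates 1 to 4. The controls held both the highest and the lowest value. The log2 fold change came to -0.24 (SE 0.35, edgeR adjusted p = 0.644), and without IgG control replicate 1 it was 0.14. Per length, Cdh1 exceeded Cdh2 by 7.72, 58.3, 6.89 and 10.7 times in GrB replicates 1 to 4, and by 2.69, 10.0, 12.0 and 18.4 times in IgG control replicates 1 to 4. Outside GrB replicate 2 this ratio lay within the range of the controls.

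**Figure D4:**
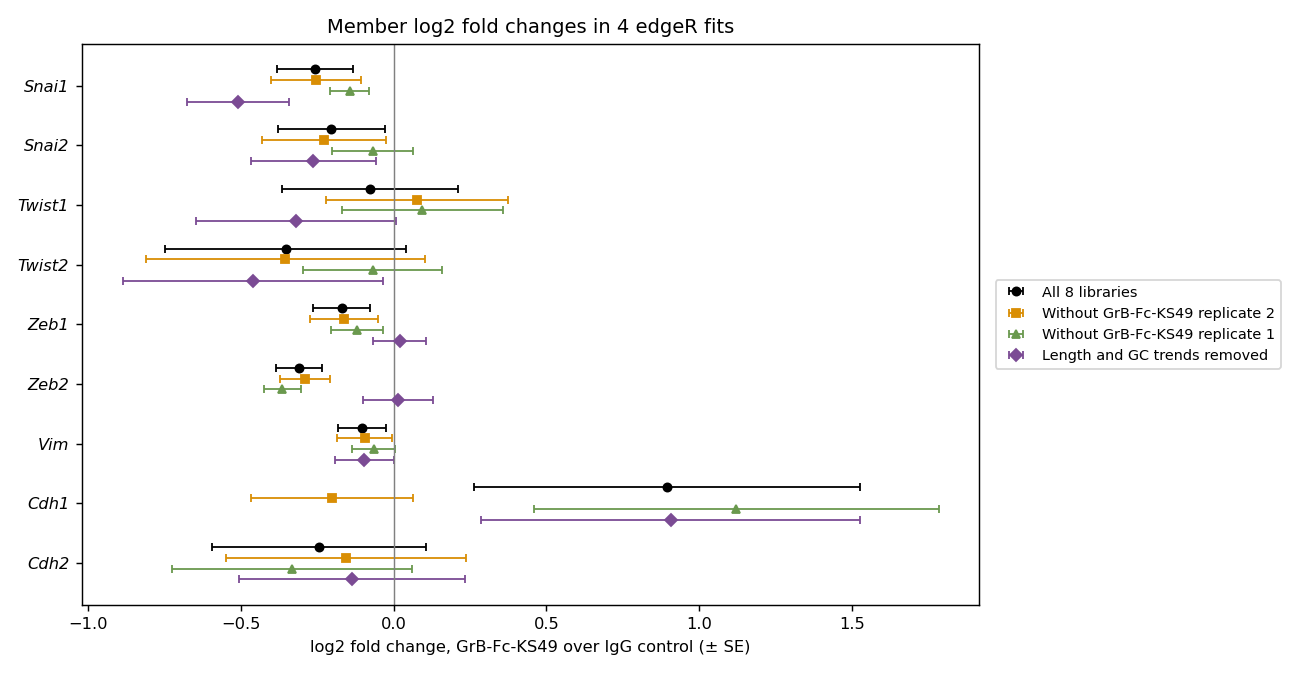
Log2 fold change of GrB over IgG control (x axis) with its standard error for each of the 9 genes, from edgeR fits with all 8 libraries, without GrB replicate 2, without GrB replicate 1, and with length and GC trends removed. Zeb2 lies at -0.31 with all libraries and at 0.02 with the trends removed, and Cdh1 at 0.90 with all libraries and at -0.20 without GrB replicate 2.

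The genes around these 9 were read in the same way, from lists of pathway members and cell type markers, against the 17.3% of all tested genes that were higher and the 17.8% that were lower at an unadjusted p under 0.05. With all 8 libraries, no gene of any list passed after adjustment by edgeR. Leaving out GrB replicate 4, edgeR called 53 of 256 list genes (17.1% of all genes tested there), among them 8 of 12 muscle, 6 of 12 proliferation and 5 of 12 T and NK cell genes and 5 of 20 mesenchymal effectors. Leaving out replicate 1 it called 7 (6.32% of all genes tested), and DESeq2 called 61 of 255, of which 10 were T and NK cell markers, against the 24.1% it called of all genes. Where length and GC trends were removed, the shares at an unadjusted p under 0.05 were 10% higher and 13.3% lower of 14508 protein-coding genes, against 17.9% and 18% of the same genes with the trends left in. Among other transcription factors of the transition, 0 of 12 tested were higher and 1 was lower, Hmga2, a chromatin protein that induces Snai1 and Twist1 (log2 fold change -0.57, SE 0.24, edgeR adjusted p = 0.132), and the list's median was -0.09. Between 0 and 3 of the 12 were lower when any 1 library was left out. Hmga2 was at 140.1, 146, 188 and 277 CPM in GrB replicates 1 to 4 and at 218 to 362 CPM in IgG controls, so the groups overlapped. Prrx1, a homeobox factor of mesenchyme, had 95.0 ± 20.7 CPM in GrB tumours and 115 ± 13.1 CPM in IgG controls (n = 4 each, SD).

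Of 16 cofactors and modifiers of the Snail and Zeb proteins, 5 were lower and 0 higher (3 to 6 lower when any 1 library was left out), and the median log2 fold change was -0.11. Suz12, a subunit of Polycomb repressive complex 2, was at 60.2, 71.7, 73.5 and 87.0 CPM in GrB replicates 1 to 4, and at 103, 99.6, 98.4 and 96.4 CPM in IgG control replicates 1 to 4. Its log2 fold change of -0.44 had a standard error of 0.11 (edgeR adjusted p = 0.0619), and the groups did not overlap. Gsk3b, the kinase that marks Snail for degradation, had a log2 fold change of -0.39 ± 0.11 (SE), and Sin3a, a scaffold of histone deacetylases, of -0.28 ± 0.08. Ctbp2, a corepressor that Zeb factors recruit, had one of -0.33 ± 0.12, and Ajuba, a LIM protein that binds Snail, one of -0.34 ± 0.14.

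Among 27 ligands, receptors and signal carriers that induce the transition, 7 were lower and 0 higher (4 to 8 lower when any 1 library was left out), and the median was -0.16. Hif1a, the hypoxia-inducible factor, was at 112, 186, 141 and 205 CPM in GrB replicates 1 to 4, and at 273, 276, 286 and 255 CPM in IgG control replicates 1 to 4. All GrB libraries lay below all controls (log2 fold change -0.76, SE 0.17, edgeR adjusted p = 0.0619), and with the length and GC trends removed the log2 fold change was -0.59. Met, the receptor of hepatocyte growth factor, was at 169 ± 25.3 CPM in GrB tumours and 224 ± 16.9 CPM in IgG controls (n = 4 each, SD), and Smad2, a carrier of TGF-beta signals, at 47.8 ± 7.58 CPM and 62.6 ± 5.29 CPM. Neither gene overlapped between the groups. With the trends removed, 3 of the 27 were lower, against 6 in the fit to the same protein-coding genes with the trends left in, and the share of all genes that were lower was also smaller there (13.3% against 18%).

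Of 20 mesenchymal effector genes, 7 were lower and 1 higher, with a median of -0.31, and 4 to 9 were lower when any 1 library was left out. Fn1, the gene of fibronectin, was at 1560, 2374, 2528 and 3289 CPM in GrB replicates 1 to 4, and at 3959, 3746, 3707 and 3831 CPM in IgG control replicates 1 to 4, without overlap (log2 fold change -0.64, SE 0.19, edgeR adjusted p = 0.0668). Itgav, the alpha V integrin that binds it, was at 87.2 ± 21.9 CPM in GrB tumours and 129.8 ± 5.94 CPM in IgG controls (n = 4 each, SD). S100a4, a calcium-binding protein of motile cells and macrophages, was the gene on the higher side, at 1161, 1017, 848 and 676 CPM in GrB replicates 1 to 4, and at 604, 683, 681 and 576 CPM in IgG control replicates 1 to 4. With the trends removed, 4 of the 20 were lower and 0 higher, beside 13.3% and 10% of all genes in that fit. Of 9 intermediate filament genes other than Vim, 1 was lower and 0 higher. That gene was Sync, which encodes syncoilin, at 1.99 ± 0.372 CPM in GrB tumours and 3.14 ± 0.323 CPM in IgG controls, without overlap.

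Epithelial lists had positive medians, which were smaller but still positive without GrB replicate 2. Of 11 regulators of epithelial identity, 3 were higher and 0 lower, with a median log2 fold change of 0.996, and without that library 0 were higher and the median was 0.40, while without GrB replicate 1 there were 7 higher. Esrp1, an epithelial splicing regulator, was at 0.188, 11.4, 0.833 and 0.460 CPM in GrB replicates 1 to 4 and at 0.0828 to 0.396 CPM in IgG controls. Grhl1, a grainyhead factor of epidermis, reached 0.413, 10.3, 0.583 and 0.373 CPM in GrB replicates 1 to 4 and 0.194 to 0.606 CPM in IgG controls, and its relative Grhl2 was the remaining gene, at 0.801 CPM in the GrB mean and 0.166 CPM in the IgG mean. Of 21 adhesion and junction genes, 6 were higher and 1 lower, with a median of 0.84, and without GrB replicate 2 there were 2 higher and 1 lower, with a median of 0.31. Without GrB replicate 3 there were 10 higher. Rab25, a trafficking protein of epithelia, was at 0.200, 8.10, 0.488 and 0.211 CPM in GrB replicates 1 to 4 and at 0.0690 to 0.161 CPM in IgG controls. Cldn1, a tight junction claudin, was at 0.488, 12.1, 0.642 and 0.311 CPM in GrB replicates 1 to 4 and at 0.262 to 0.397 CPM in IgG controls. Tjp1, the tight junction scaffold ZO-1, was the gene on the lower side, at 47.2, 84.7, 85.85 and 114 CPM in GrB replicates 1 to 4, and at 135, 136, 146 and 131 CPM in IgG control replicates 1 to 4, without overlap (log2 fold change -0.72, SE 0.22, edgeR adjusted p = 0.0707).

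The catenins and their partners tie cadherins to the actin skeleton. Of 9 members of the cadherin-catenin complex, 4 were lower and 0 higher, with a median of -0.17, and 1 to 4 were lower when any 1 library was left out. Ctnnd1, p120-catenin, was at 174, 221, 227 and 274 CPM in GrB replicates 1 to 4, and at 286, 293.5, 312 and 297 CPM in IgG control replicates 1 to 4, and the groups did not overlap (log2 fold change -0.41, SE 0.13, edgeR adjusted p = 0.0699). Vcl, vinculin, had a log2 fold change of -0.52 ± 0.20 (SE), Ctnna1, alpha-catenin, one of -0.23 ± 0.09 and Afdn, afadin, one of -0.22 ± 0.09. With the length and GC trends removed, 0 of the 8 members with a length were lower, against 2 with the trends left in, while 13.3% of all genes were lower in that fit. Of 7 other cadherins tested, 0 were higher and 0 lower. Cdh5, the cadherin of vessels, was at 51.2 ± 16.4 CPM in GrB tumours and 62.3 ± 17.7 CPM in IgG controls, Cdh11, a cadherin of fibroblasts, at 12.5 ± 4.57 CPM and 14.7 ± 7.14 CPM, and Cdh17, a cadherin of intestinal epithelium, at 24.4 ± 8.24 CPM and 27.4 ± 4.02 CPM (n = 4 each, SD).

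**Figure D5:**
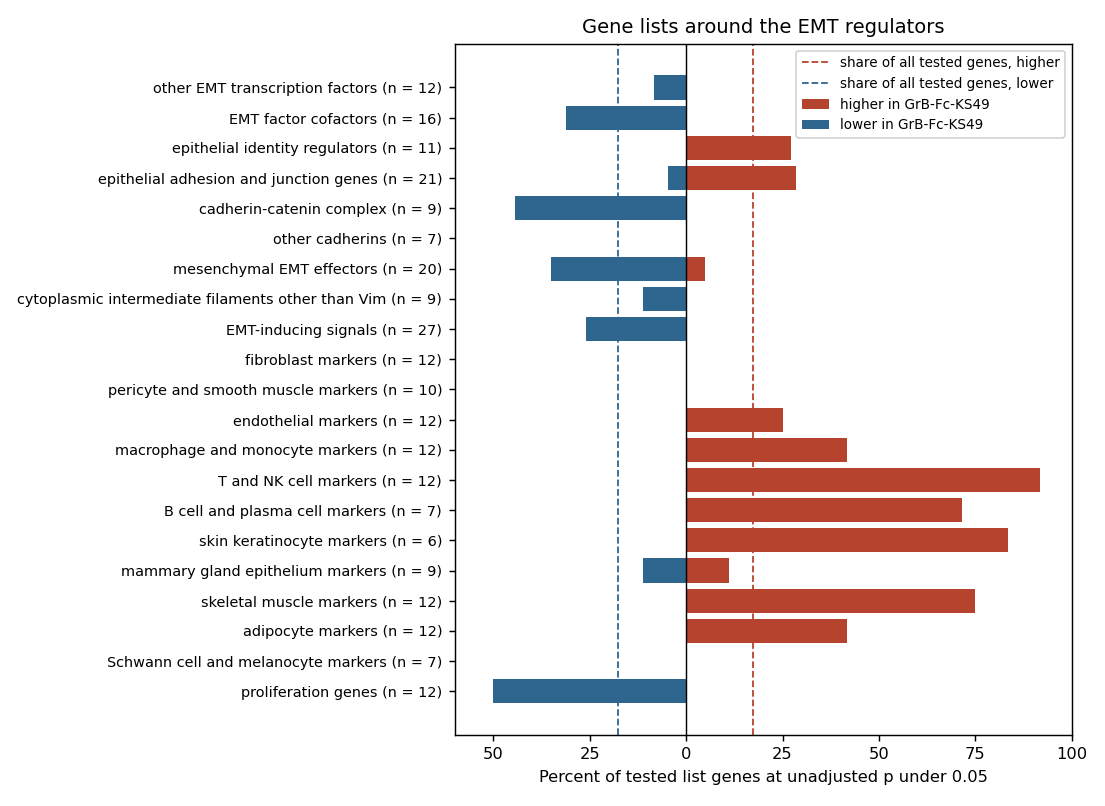
Percent of tested genes of each list at an unadjusted p under 0.05 (x axis), higher in GrB tumours to the right of 0 and lower to the left, with the number tested after each name and dashed lines at the shares of all tested genes (17.3% higher, 17.8% lower). T and NK cell markers (11 of 12 higher), skin keratinocyte markers (5 of 6) and skeletal muscle markers (9 of 12) extend farthest to the right, and proliferation genes (6 of 12) farthest to the left.

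Markers of other cells differed between the GrB libraries. Replicate 1 was lowest for Snai1, Snai2, Twist1, Twist2, Zeb1 and Vim and, within its group, highest for Zeb2. It had 2636 CPM of skeletal muscle markers against 44.4 to 413 CPM in the other GrB libraries and 45.2 to 212 CPM in IgG controls. T and NK cell markers summed to 97.0, 56.0, 15.6 and 33.2 CPM in GrB replicates 1 to 4 and to 12.8 to 19.5 CPM in IgG controls. B and plasma cell markers summed to 60.7, 53.4, 6.69 and 21.6 CPM in GrB replicates 1 to 4 and to 2.06 to 13.0 CPM in IgG controls. For both cell types GrB replicates 1, 2 and 4 lay above every control, and replicate 3 lay within the range of the controls. Replicate 3 was the highest of its group for Snai1, Snai2, Twist1, Twist2, Zeb1 and Cdh2, and the lowest for Zeb2 and Cdh1. It had 563 CPM of adipocyte markers against 111 to 205 CPM in the other GrB libraries and 78.9 to 129.9 CPM in IgG controls. The median log2 fold change of these markers was 1.52, or 0.45 without GrB replicate 3. Without replicate 1, 0 of the 12 muscle markers were at an unadjusted p under 0.05, and 8 of the 12 T and NK cell markers were. Of 12 macrophage and monocyte markers 5 were higher and 0 lower (4 to 7 higher when any 1 library was left out), of 7 B and plasma cell markers 5 and 0 (4 to 8 higher, with up to 9 tested, the most without GrB replicate 3), of 12 adipocyte markers 5 and 0 (4 to 9 higher, the most without GrB replicate 2), of 12 endothelial markers 3 and 0, of 9 mammary epithelium markers 1 and 1, and of 12 fibroblast, 10 pericyte and smooth muscle, and 7 Schwann cell and melanocyte markers 0 and 0. Among proliferation genes Mki67, the Ki-67 antigen, was at 255 ± 39.3 CPM in GrB tumours and 348 ± 12.8 CPM in IgG controls, and 5 of 12 were lower without replicate 1. The part of these cells in the values of the 9 genes was not tested. Emp2, the mouse gene of the protein that the agent binds, was at 119, 169, 103 and 150.0 CPM in GrB replicates 1 to 4, and at 120.8, 150.2, 141 and 126 CPM in IgG control replicates 1 to 4, and its log2 fold change was 0.01 (SE 0.15, edgeR adjusted p = 0.977).

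Over the 8 libraries, the genes whose log2 CPM followed a member most closely were found among 12686 protein-coding genes by Pearson's r, given as a description since any gene has close followers over so few libraries. Zeb2 was followed by L3mbtl2, a Polycomb protein, with r = 0.97, and by the ribosome biogenesis genes Wdr43 (0.94) and Wdr12 (0.93). Wdr43 was at 113 ± 9.25 CPM in GrB tumours and 139 ± 1.30 CPM in IgG controls (n = 4 each, SD). Wdr43 and L3mbtl2 did not overlap between the groups, and Wdr12 did. All GrB libraries lay below all controls in 15.3% of all tested genes, and these genes were picked for following Zeb2. Cdh1 was followed by Ankrd49 (0.96), Grhl1 (0.96) and Atp6v0a4, a proton pump subunit (0.96), and without the high GrB replicate 2 these values were 0.83, 0.77 and 0.80. Twist1 was followed by Mcc (0.99), Ckap4 (0.99) and Kirrel3 (0.99), and Ckap4, a membrane protein of the endoplasmic reticulum, was at 382, 397, 551 and 506 CPM in GrB replicates 1 to 4, and at 510, 507, 427 and 471 CPM in IgG control replicates 1 to 4. Snai1 was followed by Zfp563, Tuft1 and Herc3 (0.99 each), Snai2 by Prdm1, Cd276 and Rapgef5 (0.97 each), Twist2 by Kctd15 (0.98), Zbed5 (0.97) and Rerg (0.96), and Zeb1 by Filip1l (0.99), Gab1 (0.97) and Ptprm (0.95). Vim was followed by Helq (0.99), Poldip3 (0.97) and Swap70 (0.96), and Cdh2 by Sorbs2 (0.94), Nrcam (0.92) and Thsd7a (0.91). The 3 genes nearest to Snai1, Zfp563, Tuft1 and Herc3, shared with it the lowest value in GrB replicate 1.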

How the data were processed

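Libraries were made with the KAPA Stranded mRNA-Seq kit, which enriches mRNA and marks the second cDNA strand with dUTP, per the labels' protocols. The submitters' processing notes name bcl2fastq 2.19.1.403, STAR and the GRCm39 genome. The STAR version, the quantifier, the annotation and the use of strand are not stated there. The deposited tables hold estimated counts for each gene, every gene having at least 10 counts in total, and CPM values that the authors made from the same counts after adding 1e-04 count.

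The estimated counts were rounded to whole numbers, filtered with edgeR's filterByExpr by group and scaled by TMM. Groups were compared with edgeR 4.0.16 (R 4.3.3) by the robust quasi-likelihood test, fitted on 19718 genes, with Benjamini-Hochberg adjustment over all of them and a threshold of 0.05. The biological coefficient of variation was 27.8%. The procedure was tested on simulated data. Printed CPM are TMM-scaled counts, and errors are SD over 4 libraries unless named as SE. With library totals of 74 to 82.6 M, counting error was largest for Twist2 and Cdh2. DESeq2 1.42.0, limma 3.58.1 (voom with and without sample weights, and the deposited CPM on a log2 scale with a pseudocount of 1 or 0.25), other scalings and filters, each library left out, both U libraries left out, the suffix as covariate, and removal of smooth length and GC trends (mgcv 1.9.3) were tried as alternatives. A fit on protein-coding genes with a length was added after seeing the data.

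Lengths and GC contents came from the longest GENCODE M21 transcript of each gene and covered 99.8% of tested protein-coding genes. Gene coordinates on GRCm39 are as deposited, 1-based with the last base included. The 9 genes and the 21 gene lists, with 289 entries of which 10 are not in the table, were chosen with earlier results of these data known, so no list is independent support for a pattern. Text names the 9 genes, up to 3 tested genes per list with the smallest unadjusted p and a mean of at least 1 CPM, the 3 genes most like each member, genes overlapping a member, Emp2, and genes behind a count of 5 or fewer. Epcam, Krt8 and single keratinocyte markers were named after their values were seen. Another gene that meets the rule is not reported here.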

Additional observations from a re-analysis of the deposited data

Results flagged for a closer look

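In 3 of the 18 sets of 4 libraries (9 genes in each group), 1 value lay far from the others by Dixon's test, where chance alone flags about 1 set in 20. Cdh1 was at 36.9 CPM in GrB replicate 2, with the next value of that group at 6.90 CPM (ratio of gap to range 0.978). Cdh1 was also at 4.05 CPM in IgG control replicate 1, below the next control value of 8.5 CPM (0.886). Snai2 was at 10.1 CPM in GrB replicate 1, below the next value of 15.5 CPM (0.870). GrB replicate 2 is the library with 725 CPM of Krt10, and GrB replicate 1 the one with 2636 CPM of summed skeletal muscle markers, and their part in these values was not tested.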

How the results depend on the processing

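Over 22 alternative settings, the log2 fold changes of the 9 genes gave 196 values, of which 184 kept their direction and their side of the threshold, 4 newly passed it and 8 changed sign. Cdh2 has no value under the stricter low-count filter and Cdh1 no adjusted p from DESeq2. The 4 that passed were Zeb2 with DESeq2, with limma-voom with sample weights, and with edgeR without GrB replicate 1 or replicate 4, and in each of these settings 1 of the 9 genes was past the threshold, so leaving out a library gave 0 to 1. The shares of all tested genes past it in these settings were 24.1%, 6.55%, 6.32% and 17.1%, in that order. The sign changed for Zeb2 (0.015) and Zeb1 (0.019) with the length and GC trends removed, for Cdh1 without GrB replicate 2 (-0.20), for Twist1 without GrB replicate 1 (0.094), without GrB replicate 2 (0.08) or without IgG control replicate 1 (0.02), and for Cdh2 without IgG control replicate 1 (0.14) or without both U libraries (0.029); the cause was not tested. With a library left out, log2 fold changes ran from -0.37 to -0.26 for Zeb2, -0.23 to -0.09 for Zeb1, -0.33 to -0.14 for Snai1, -0.32 to -0.07 for Snai2, -0.37 to 0.09 for Twist1, -0.62 to -0.07 for Twist2, -0.15 to -0.07 for Vim, -0.20 to 1.14 for Cdh1 and -0.44 to 0.14 for Cdh2. At an unadjusted p under 0.05, 1 to 2 of the 9 genes were found with a library left out, with Snai1 (unadjusted p = 0.0299) added without GrB replicate 3 and Zeb1 (0.0487) without IgG control replicate 3, and 2 without both U libraries, where Snai1 (0.0409) was added. With the trends removed Snai1 (-0.51, unadjusted p = 0.0135, edgeR adjusted p = 0.173) took the place of Zeb2.

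Over all genes, those called higher and lower numbered 2264 and 2483 with DESeq2, 0 and 1 with limma-voom, 471 and 820 with sample weights, and 0 to 1432 and 0 to 2015 with a library left out, the most without GrB replicate 4 and next 445 and 815 without replicate 1. At an unadjusted p under 0.05, a library left out gave 2440 to 4042 higher and 2301 to 3803 lower genes, the fewest lower ones without IgG control replicate 1, and removal of the trends gave 1454 and 1932. Of these genes 61.4% were higher with upper quartile scaling, against 49.2% with TMM. Counts of 42 to 213 per library limit Cdh2 and Twist2. No paired analysis was possible because the replicate numbers pair no GrB library with an IgG control.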
